A study of Mus musculus with 12 samples.

Results

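Away from promoters, 578 regions of the mouse genome carried at least 2-fold more acetylation of histone H3 at lysine 27 (H3K27ac) in Cox10-/- than in wild-type regenerating liver. They were chosen from 16536 non-promoter regions among the 36387 regions of the deposited table. A region was taken when its log2 ratio was 1 or more, the ratio being (mean of the 3 Cox10-/- libraries + 1) over (mean of the 3 wild-type libraries + 1). They are called gained regions here for that ratio alone. A promoter region is one that the deposited annotation places within 3 kb of a start site. The values that chose the regions are described below without a test.

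H3K27ac is placed by the acetyltransferases p300 and CBP and marks active promoters and enhancers, the stretches of DNA that bind transcription factors and act on genes at a distance. An enhancer can lie in an intron, between genes or beyond a neighbouring gene, so the nearest gene, for which each region is named, may not be its target. Cox10 encodes heme A:farnesyltransferase, which is needed to assemble cytochrome c oxidase, the last enzyme of the respiratory chain. In many cells, faults of mitochondria raise the transcription factor ATF4, which switches on genes of amino acid synthesis and stress signalling.

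The Cox10-/- group was made of mice with floxed Cox10 alleles that received AAV8-Cre, an adeno-associated virus carrying Cre recombinase. The wild-type group was made of mice with the same floxed allele that received AAV8-GFP. All mice had 70% of the liver removed 4 weeks after the virus, and the regenerating liver was taken 2 days after surgery. The promoter that drove Cre, the age and the sex of the mice are not given in the sources used here. Each genotype had 3 H3K27ac libraries from whole liver, and whether each came from a separate animal is not in the labels, so the spread between libraries may be technical. In bulk tissue, fewer cells that carry a mark and less of the mark per cell cannot be told apart.

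The regions held 3302556, 3385453 and 3282878 reads in the Cox10-/- libraries, against 4138459, 3897454 and 4187377 in the wild-type libraries. The deposited values are these reads divided by a size factor per library, and they are called normalised reads here. One read was worth 0.758 to 0.850 normalised reads in Cox10-/- libraries and 1.28 to 1.37 in wild-type libraries. Over all regions the median log2 ratio was -1.04, and limma, fitted over the whole table, called 87.2% of regions lower and 4.46% higher, so a gained region went against the bulk of the table. If every library is centred on its median region instead, each log2 ratio moves up by 1.04, and values between -1.04 and 0 in this text change sign. Cox10 itself was the name of a gained region (described below), which lies in an intron and does not check the deletion. The summed signal of all regions named for 10 hepatocyte markers, such as Alb and Apob, was 5165 to 5851 normalised reads in Cox10-/- libraries, against 18180 to 18857 in wild-type libraries. Of these 10 genes 9 had a region.

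The letters of most gained regions were not read, since no genome of their build was at hand. Start windows from RefSeq (GRCm38.p6, which is mm10), 250 bases before to 50 after each start, were at hand, and in 4 cases such a window reached into a gained region; all 4 belong to long non-coding RNAs. A pair of them is shown because these letters themselves lie in gained regions. The stretch of 3830432H09Rik is chr1:119536116-119536308 on the minus strand, and that of Gm32838 is chr6:145968647-145968854 on the plus strand. Capitals mark AGATAA, the core bound by GATA factors, searched on both strands.
3830432H09Rik: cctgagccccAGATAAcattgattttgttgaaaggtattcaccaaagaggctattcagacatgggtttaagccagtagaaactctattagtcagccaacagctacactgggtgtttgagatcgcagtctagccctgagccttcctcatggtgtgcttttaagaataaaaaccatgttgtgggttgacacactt
Gm32838: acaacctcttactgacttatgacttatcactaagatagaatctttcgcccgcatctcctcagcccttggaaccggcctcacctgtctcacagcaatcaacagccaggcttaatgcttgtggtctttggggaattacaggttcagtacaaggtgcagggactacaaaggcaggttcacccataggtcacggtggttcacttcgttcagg
The region that holds the first stretch had 85, 88.8 and 74.2 normalised reads in Cox10-/- libraries, against 7.98, 5.48 and 8.95 in wild-type libraries, a log2 ratio of 3.30. The one that holds the second had 39.1, 52.5 and 37.9 in Cox10-/- libraries, against 7.98, 12.3 and 8.95 in wild-type libraries, a log2 ratio of 2.04. In both, every Cox10-/- library lay above every wild-type library. The other gained regions that reached a start window were at Gm37406 (log2 ratio 1.76) and Gm35837 (log2 ratio 1.07). AGATAA stood in 7.30% of 397 start windows of the genes nearest to gained regions and in 6.79% of 4062 windows of all genes nearest to a non-promoter region.

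A further pair of windows is shown because both are RefSeq promoters of ATF4 target genes that had a gained region nearby and, as given below, more H3K27ac at the promoter. Trib3 encodes a pseudokinase induced by ATF4 and CHOP, and its window is chr2:152344011-152344310 on the minus strand. Nupr1 encodes a small stress-induced nuclear protein, and its window is chr7:126625421-126625720 on the minus strand. Capitals mark TGATGNAA, the composite element bound by C/EBP and ATF4, here read on the opposite strand.
Trib3: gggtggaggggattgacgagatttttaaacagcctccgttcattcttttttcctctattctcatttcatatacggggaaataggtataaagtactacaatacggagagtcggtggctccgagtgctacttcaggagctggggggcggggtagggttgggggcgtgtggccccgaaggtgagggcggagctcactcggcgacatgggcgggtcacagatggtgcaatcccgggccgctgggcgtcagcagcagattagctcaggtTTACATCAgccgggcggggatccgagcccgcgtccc
Nupr1: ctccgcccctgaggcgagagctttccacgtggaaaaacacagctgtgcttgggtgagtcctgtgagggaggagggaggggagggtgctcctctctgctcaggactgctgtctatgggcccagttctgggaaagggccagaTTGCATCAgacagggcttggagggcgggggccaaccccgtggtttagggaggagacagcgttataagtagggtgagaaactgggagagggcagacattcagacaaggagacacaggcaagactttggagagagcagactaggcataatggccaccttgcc
The element begins 14 bases after the start site in Trib3 and 110 bases before it in Nupr1 (position -110). It stood in 2.77% of the 397 windows of genes nearest to gained regions, against 2.81% of the 4062 windows of all genes nearest to a non-promoter region. Of the 386 nearest genes, 271 had such a window. The pair of RefSeq windows of Psat1 and the window of Ddit4, list genes that also had a gained region, did not hold these letters. A match is a description of letters and not a sign of binding.

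In the values that chose them, gained regions were weak in wild type and had more Cox10-/- signal per kb than most other non-promoter regions. This is a description of the chosen set. The median gained region had 46.9 normalised reads in Cox10-/- liver (quartiles 34.4 and 67.5), against 14.5 in wild type (quartiles 9.69 and 23.5). The median of the other 15958 non-promoter regions was 36.3 normalised reads in Cox10-/- liver, against 84.3 in wild type. Per kb of region, gained regions had a median of 138 normalised reads in Cox10-/- liver, against 45 in wild type, and the other non-promoter regions had 96.7 (upper quartile 128), against 227. Of the 1000 non-promoter regions with most Cox10-/- signal per kb, 65 were gained regions, and of the 1000 with most wild-type signal per kb, 0 were.

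The wild-type mean was under 5 normalised reads at 40 gained regions, 5 to under 20 at 354, 20 to under 50 at 162, and 50 or more at 22. No gained region was at 0 in all 3 wild-type libraries, and 8 were at 0 in at least 1. Only 7 gained regions (1.21%) reached the wild-type median of non-promoter regions, while 406 (70.2%) reached the Cox10-/- median. The lowest mean over the 6 libraries in the whole table was 10.8 normalised reads, so a region with little signal in wild type could be listed only through its Cox10-/- signal.

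Log2 ratios of the gained regions had a median of 1.52, with quartiles of 1.24 and 2.03, and a highest value of 3.75. In 428 regions the ratio was 2-fold to under 4-fold, in 150 it was 4-fold or more, and in 21 of these 8-fold or more. All 578 were called higher by limma (adjusted p under 0.05 over all regions), where 7.56% of non-promoter regions were, and all 578 were also higher at that threshold in the authors' deposited table, where 6.14% were. In 577 of them the 3 Cox10-/- values lay above the 3 wild-type values, against a background of 7.47% of non-promoter regions. The rule used this contrast, so nothing is read from these counts. Just inside the threshold lay regions named for Klf6, Atp6v0d1 and St3gal1, and just outside it Vmp1, Gm12514 and Scp2. The Atp6v0d1 region had 84.1, 85.5 and 79.6 normalised reads in Cox10-/- libraries, against 43.9, 37.0 and 42.2 in wild-type libraries. The Vmp1 region had 99.4, 107 and 97.0 in Cox10-/- libraries, against 53.2, 53.4 and 43.5 in wild-type libraries.

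**Figure D1:**
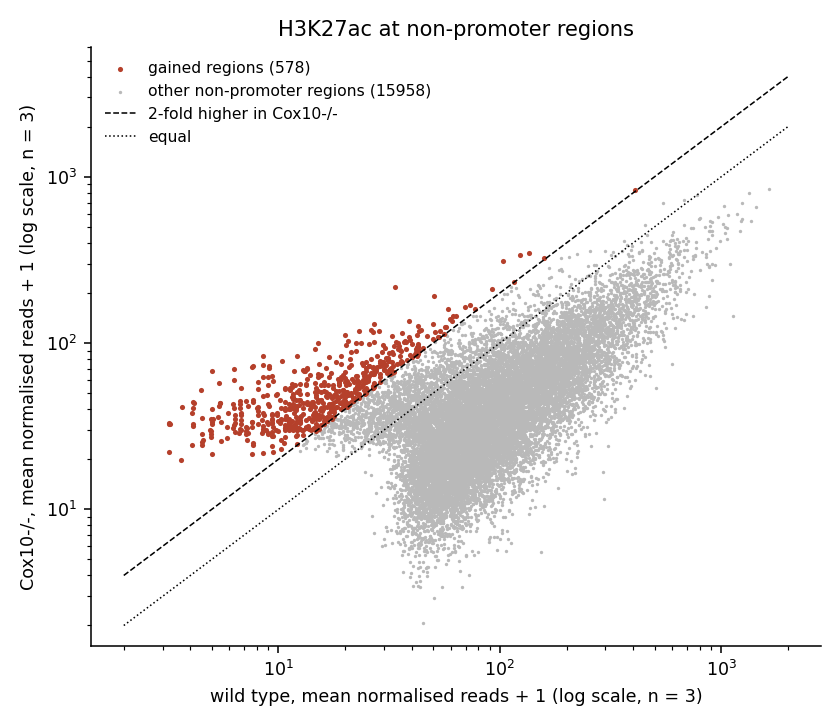
Mean H3K27ac of 3 Cox10-/- libraries (vertical axis) against the mean of 3 wild-type libraries (horizontal axis), in normalised reads + 1 on log axes; each point is a non-promoter region, the 578 gained regions are coloured, and lines mark equal signal and a 2-fold ratio. Gained regions sit at the low end of wild type (median 14.5) and above the median of other regions in Cox10-/- liver (46.9 against 36.3).

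The rule was also applied with 1 library of each genotype left out, and the ratio of the left-out libraries was read. Chosen from the other libraries, the gained regions numbered 569, 590 and 607 when libraries 1, 2 and 3 were left out. In the left-out libraries their median log2 ratios were 1.65, 1.53 and 1.37, against -1.20, -1.21 and -1.34 for all non-promoter regions. The ratio was above 0 in 99.6%, 99.8% and 99.2% of the chosen regions, and 2-fold or more in 83.8%, 78.8% and 73.6%. These values are a description only, since the left-out libraries may have helped to select the regions of the deposited table. Summed over the 578 regions, the Cox10-/- libraries held 35987, 33773 and 31369 normalised reads, against 11257, 11236 and 11137 in the wild-type libraries. That was 3.92%, 3.82% and 3.88% of all non-promoter signal in the Cox10-/- libraries, against 0.586%, 0.599% and 0.591% in the wild-type libraries.

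Introns beyond the first held a larger share of the gained regions than of non-promoter regions as a whole. Later introns held 226 gained regions (39.1%), against 30.7% of all non-promoter regions, and first introns 104 (18%), against 23.4%. A further 214 (37.0%) were distal intergenic, against 39.0% of all. Exons held 22, the 3' UTR 9, the 5' UTR 2, and 1 lay just downstream of a gene. Put as a share of each class, 4.45% of later-intron regions, 3.32% of distal intergenic regions and 2.68% of first-intron regions were gained, against 3.5% of all non-promoter regions. The median distance to the nearest RefSeq start at hand was 23.2 kb for 554 gained regions, chromosome 18 left out, against 17.6 kb for the other non-promoter regions. Only 271 of the 386 nearest genes had a start window at hand, so true distances can be shorter. The median width was 339 bases, against 391. These are counts over regions, with no test.

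Gained regions lay near one another. The median distance to the nearest other gained region was 22.6 kb, whereas the median distance of other non-promoter regions to a gained region was 1291 kb. With gaps of up to 25 kb joined, the 578 regions formed 400 groups, of which 287 were single regions, 113 had 2 or more and 41 had 3 or more. Groups of 2 or more held 291 gained regions (50.3%), while 5.21% of the other non-promoter regions had a gained region within 25 kb. Neighbouring regions can be parts of 1 broad acetylated domain that was cut into several regions, so they are not separate replicates. Grouped regions had a median log2 ratio of 1.6 and single ones of 1.43.

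The largest group lay in Pvt1, a long non-coding RNA gene beside Myc. It held 7 gained regions over 8.83 kb of intron 6 of 9 (chr15:62329793-62338619), with a sum of group means of 670.4 normalised reads in Cox10-/- liver, against 181 in wild type. Its tallest region, chr15:62334601-62336048, had 223, 202 and 220 normalised reads in Cox10-/- libraries, against 33.3, 30.1 and 34.5 in wild-type libraries, a log2 ratio of 2.68. All 3 Cox10-/- libraries stood far above all 3 wild-type libraries there. Pvt1 had 32 non-promoter regions in all, of which 13 were gained, and the 19 others had a median log2 ratio of 0.25. One of those was lower 4-fold or more. The Pvt1 promoter region of highest mean signal had 176, 188 and 150 normalised reads in Cox10-/- libraries, against 138, 130.1 and 149.5 in wild-type libraries (log2 difference 0.29, SE 0.115). These promoter values barely cleared one another, and limma called the difference higher.

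**Figure D2:**
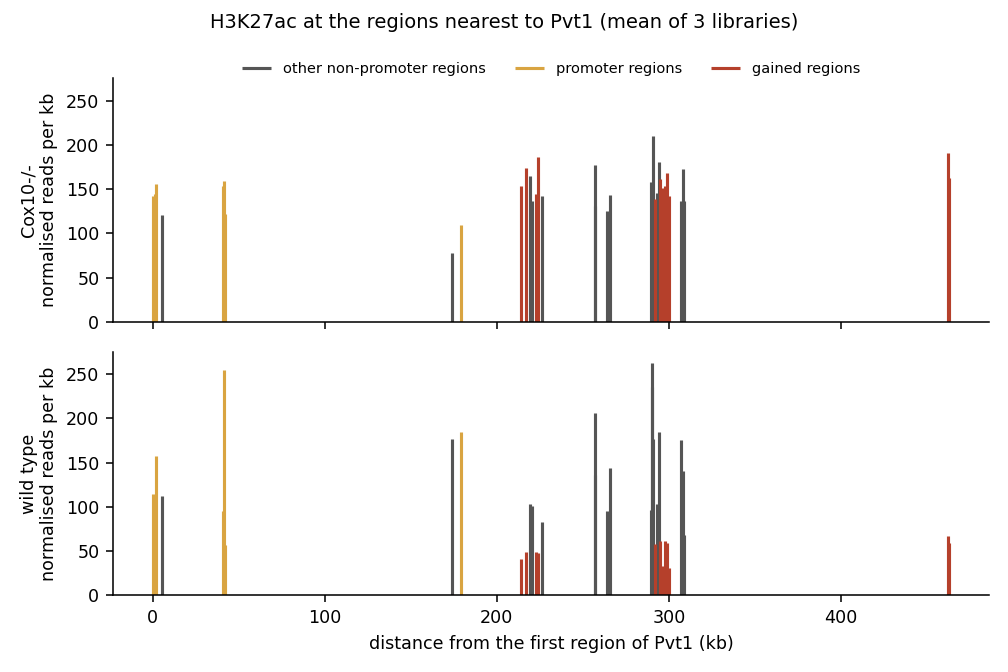
H3K27ac in normalised reads per kb (vertical axes, means of 3 libraries) at the 39 regions nearest to Pvt1, by distance in kb from the first of them; the upper panel is Cox10-/- liver and the lower panel wild type. The 13 gained regions stand level with their neighbours in the upper panel and are among the shortest bars of the lower panel.

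Other genes with several gained regions were Lipc, Azin1, Cdkal1 and Slc24a3 with 6 each and Dlgap1 with 5. Cdkal1 encodes a tRNA-modifying enzyme, and its 6 gained regions stood in 6.46 kb of intron 11 of 16, with a sum of 324 normalised reads in Cox10-/- liver, against 51.5 in wild type. Its tallest one, chr13:29503666-29504424, averaged 111 ± 3.71 in Cox10-/- liver and 18.9 ± 4.51 in wild type (SD, n = 3 each). Azin1, an inhibitor of antizyme in polyamine metabolism, had 6 intergenic gained regions over 20.9 kb, with a sum of 444 in Cox10-/- liver, against 170.4 in wild type. Slc24a3 encodes a sodium, potassium and calcium exchanger. Its 6 gained regions lay in introns 1 and 2 of 16, with log2 ratios of 2.04 to 3.35. The one at chr2:145225360-145225854 had 57.8, 66.2 and 59.9 normalised reads in Cox10-/- libraries, against 16, 12.3 and 14.1 in wild-type libraries. The lowest Cox10-/- library there lay above the highest wild-type library. Non-promoter regions that were not gained had median log2 ratios of -1.52 at Azin1 (3 regions), -1.09 at Cdkal1 (2), -0.86 at Slc24a3 (3) and 0.33 at Dlgap1 (4). At Cdkal1, 1 of these was lower 4-fold or more.

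Lipc encodes hepatic lipase, secreted by hepatocytes, and differed from Pvt1 at the promoter region of highest mean signal. It had 32 non-promoter regions, of which 6 in intron 1 of 8 were gained, with log2 ratios of 1.01 to 1.83. The 26 others had a median log2 ratio of 0.25, the same value as at Pvt1. The tallest, chr9:70842865-70843960, had 194, 168 and 146 normalised reads in Cox10-/- libraries, against 63.9, 76.7 and 75.4 in wild-type libraries. The promoter region of Lipc went the other way, with 36.5, 29.9 and 24.2 in Cox10-/- libraries, against 78.5, 60.3 and 84.4 in wild-type libraries. No library of one genotype overlapped the other in either place.

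The gained regions with the largest ratio among those at or above the median signal of the table were, besides Pvt1, named for Nln, Dlgap1, Plin2, Gab2, Myof, Copb1 and Cfap53. Nln encodes neurolysin, a peptidase, and its region chr13:103978049-103978715 had 147, 115 and 127 normalised reads in Cox10-/- libraries, against 18.6, 26.0 and 33.2 in wild-type libraries (log2 ratio 2.28). The Dlgap1 region chr17:70745558-70746804 had 219, 187 and 168 in Cox10-/- libraries, against 43.9, 60.3 and 44.7 in wild-type libraries (log2 ratio 1.93). Dlgap1 encodes a scaffold protein known from synapses, and the annotation places this region in exon 3 of 3 of another transcript within it. Gab2, an adaptor of receptor tyrosine kinase signalling, had 4 non-promoter regions, all gained. Its tallest one, in intron 1 of 9 (chr7:97208922-97210083), had 178, 178 and 123 in Cox10-/- libraries, against 55.9, 57.5 and 58.8 in wild-type libraries. The regions of Myof, a membrane-repair protein, Copb1, a coatomer subunit, and Cfap53, a protein of cilia, had log2 ratios of 1.44, 1.41 and 1.38. Their libraries did not overlap between genotypes. At Myof the 2 other non-promoter regions were both lower 4-fold or more (median log2 ratio -2.74). Regions not gained had medians of -0.91 at Nln (7 regions), -0.32 at Copb1 (5) and 0.03 at Plin2 (4).

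By level rather than ratio, the tallest gained region was that of Ssh2, a phosphatase that activates the actin-severing protein cofilin. It covered 5002 bases around exon 13 of 15 (chr11:77441829-77446831) and had 863, 833 and 811 normalised reads in Cox10-/- libraries, against 391, 436 and 391 in wild-type libraries (log2 ratio 1.04). Pdk4 encodes the kinase that shuts off pyruvate dehydrogenase when fatty acids are burned. Its intergenic region chr6:5510074-5512224 had 391, 335 and 308 in Cox10-/- libraries, against 119.7, 133 and 152 in wild-type libraries (log2 ratio 1.35). A second Pdk4 region, chr6:5500918-5501388, had 93.5, 73.4 and 65.2 in Cox10-/- libraries, against 6.65, 13.7 and 7.67 in wild-type libraries (log2 ratio 2.92). Klf6, an early-response zinc-finger factor, had 245, 243 and 206 in Cox10-/- libraries, against 110.4, 111 and 124 in wild-type libraries at its gained region (log2 ratio 1.00). Further tall gained regions were named for Spag9, a scaffold of JNK signalling, and Leprot, with log2 ratios of 1.20 and 1.25. At every one of these regions the lowest Cox10-/- library lay above the highest wild-type library.

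**Figure D3:**
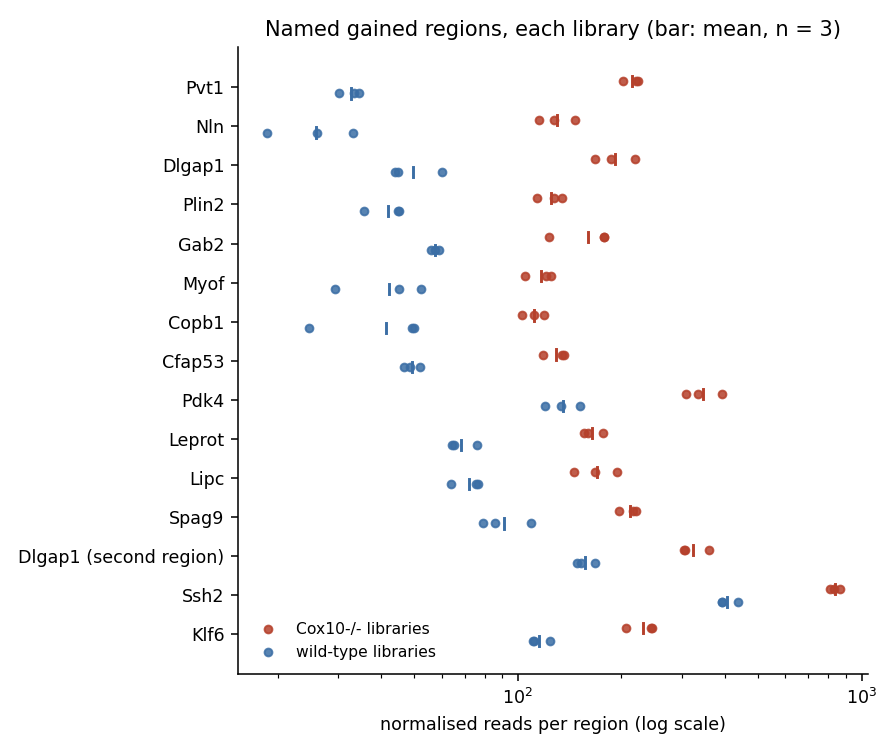
Normalised reads per region in each library (horizontal log axis) for the named gained regions, Cox10-/- above wild type in each row; points are libraries and bars are means (n = 3). No row overlaps between genotypes, from Pvt1 (log2 ratio 2.68) at the top to Klf6 (1.00) at the bottom.

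Regions close to a gained region had higher ratios than regions far from one. Among non-promoter regions that were not gained, the median log2 ratio was 0.51 within 2 kb of a gained region (177 regions), -0.19 at 2 to 5 kb, -0.32 at 5 to 10 kb, -0.69 at 10 to 25 kb and -1.36 beyond 250 kb. Promoter regions followed the same order, with medians of 1.08 within 2 kb (14 regions), -0.05 at 2 to 5 kb (56 regions), -0.56 at 5 to 10 kb and -0.94 beyond 250 kb. By construction, regions that are not gained have log2 ratios under 1, which does not hold for promoters. Regions in the nearest bins can belong to the same acetylated stretch as the gained one. Centring each library would raise all these medians by the same 1.04 and leave their order as it is.

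**Figure D4:**
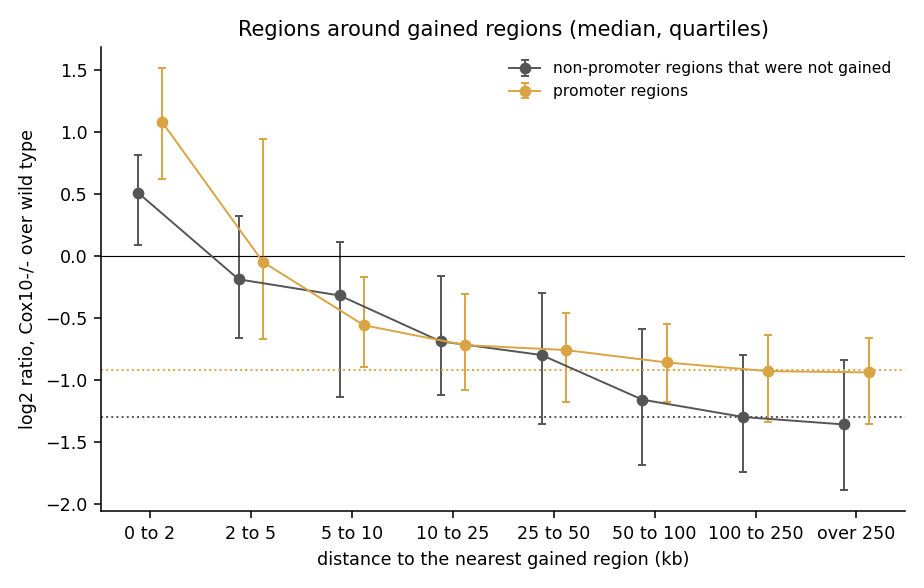
Median log2 ratio of Cox10-/- over wild type (vertical axis, bars to the quartiles) by distance to the nearest gained region in kb (horizontal axis), for non-promoter regions that were not gained and for promoter regions; dotted lines are the medians over all regions of each kind (-1.30 and -0.92). Both fall with distance, non-promoter regions to -1.36 and promoter regions to -0.94 beyond 250 kb.

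Of the 386 genes nearest to a gained region, 292 had promoter regions in the table, 814 in all. These regions come from the same libraries and the same contrast as the rule, so their counts are a description. Limma called 81 of the 814 higher in Cox10-/- liver (9.95%), against 1.87% of all promoter regions. It called 624 lower (76.7%), against 91.2% of all promoter regions. Their median log2 ratio was -0.75, against -0.92 for all promoter regions. Thus promoters of the nearest genes, taken at any distance, were in most cases called lower on the deposited scale; on the centred scale a median of -0.75 lies above 0.

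Higher promoter calls were most frequent next to the gained region itself. Within 5 kb of a gained region, 33 of 68 promoter regions (48.5%) were called higher and 22 lower, with a median log2 ratio of 0.37. Over 5 kb away, 48 of 746 (6.43%) were called higher and 602 (80.7%) lower, with a median of -0.79. Promoters of genes with 3 or more gained regions were called higher in 23 of 115 cases (20%). By class of the gained region, the share called higher was 10.0% for first introns, 11.2% for later introns and 10.5% for intergenic regions, which is nearly the same.

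The other non-promoter regions of these genes were also called higher more often than non-promoter regions at large. Limma called 242 of 1570 higher (15.4%) and 996 lower (63.4%), against 4.21% and 85.3% of all non-promoter regions that were not gained. Over 5 kb from a gained region, 98 of 1234 (7.94%) were called higher. Of the 386 genes, 58 (15.0%) also had a non-promoter region lost 4-fold or more, against 1426 of 3967 other genes (35.9%). Only 272 of the 386 had a non-promoter region that was not gained and so could be lost. The rule thus fixes part of this gap. Genes nearest to gained regions had a median of 3 non-promoter regions, gained ones included, and other genes had 2. In 114 of the 386 genes every non-promoter region was gained, but only 28 of these genes had 2 or more such regions.

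Named genes show both patterns. The promoter of Pdk4, within 5 kb of a gained region, had 363, 349 and 290.2 normalised reads in Cox10-/- libraries, against 133, 142 and 138 in wild-type libraries (log2 difference 1.27, SE 0.103). The Dlgap1 promoter had 190.4, 172 and 183 in Cox10-/- libraries, against 54.5, 57.5 and 65.2 in wild-type libraries (log2 difference 1.61, SE 0.133). Both were called higher, and Gab2 was too, at a log2 difference of 0.48. The Plin2 promoter, in contrast, was called lower, with 738, 818 and 707 in Cox10-/- libraries, against 925, 946 and 933 in wild-type libraries, although 4 of the 8 non-promoter regions named for Plin2 were gained. Promoters of Nln, Copb1, Ssh2, Spag9, Leprot, Azin1 and Cdkal1 were called lower, with log2 differences of -1.01 to -0.51. That of Klf6, at 627 ± 48.5 in Cox10-/- liver and 685 ± 26.1 in wild type (SD, n = 3 each), was not called. All of these lower values lie within 1.04 of 0 and turn positive when libraries are centred.

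Gained regions were set against 30 gene lists, 7 of them cell type markers, written with earlier results of these data known. Over all genes with a non-promoter region, 386 of 4353 (8.87%) had a gained one. No list had more than 17 such genes, so a share rests on a few genes, and no list was tested. Genes of ATF4 and the mitochondrial stress response had gained regions in 5 of 9 cases: Ddit4, Hspa9, Nupr1, Psat1 and Trib3.

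Trib3 had its gained region in intron 3 of 3 (chr2:152338775-152339057), with 42.5, 37.1 and 30.3 normalised reads in Cox10-/- libraries, against 6.65, 9.59 and 8.95 in wild-type libraries (log2 ratio 2.00). The Nupr1 region (chr7:126636203-126636615) had 56.9, 45.2 and 52.3 in Cox10-/- libraries, against 12.0, 12.3 and 6.39 in wild-type libraries (log2 ratio 2.22). At both genes, whose windows with the TGATGNAA element are printed above, the promoter was called higher as well. The Trib3 promoter had 247, 217 and 188 in Cox10-/- libraries, against 117, 115 and 81.8 in wild-type libraries. The Nupr1 promoter had 139, 107 and 114 in Cox10-/- libraries, against 51.9, 60.3 and 47.3 in wild-type libraries. Neither promoter overlapped between genotypes.

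Psat1, which makes serine from a glycolytic intermediate, had both of its non-promoter regions gained, one intergenic and one in the 3' UTR. The intergenic one (chr19:15903902-15904618) had 114, 97.7 and 91.7 in Cox10-/- libraries, against 31.9, 37.0 and 38.3 in wild-type libraries. Its promoter, at 55.3 ± 5.93 in Cox10-/- liver and 44.8 ± 11.1 in wild type (SD, n = 3 each), was not called. Ddit4, an inhibitor of mTORC1, and Hspa9, the chaperone mortalin of the mitochondrial matrix, had gained regions with log2 ratios of 1.25 and 1.63 and promoters that were called lower, by -0.19 and -0.58. Both signs turn on the centred scale. Over the list's 38 promoter regions, 11 were called higher and 18 lower, against 1.87% and 91.2% of all promoter regions. Of its 31 non-promoter regions, 7 were called higher and 22 lower. Over all non-promoter regions 7.56% were called higher and 82.4% lower.

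Lipid droplet and lipid uptake genes had gained regions in 4 of 8 cases. Plin2 coats lipid droplets, and its tallest gained region (chr4:86686879-86687690) had 127, 134 and 114 in Cox10-/- libraries, against 45.2, 35.6 and 44.7 in wild-type libraries. Hilpda blocks the droplet lipase ATGL, and its region (chr6:29267491-29267932) had 45, 50.8 and 48.5 in Cox10-/- libraries, against 17.3, 13.7 and 6.39 in wild-type libraries. Cd36, a fatty acid carrier, and Pparg, a nuclear receptor that drives fat storage, had log2 ratios of 1.42 and 1.26. Of these 4 genes, limma called the promoter higher at Hilpda (log2 difference 0.29, SE 0.101) and lower at Plin2, Pparg and Cd36 (-0.31, -0.33 and -0.77, all 3 positive when centred). Of the 62 non-promoter regions of the lipid droplet and uptake list, 11 were called higher and 41 lower. Among all non-promoter regions 7.56% were called higher and 82.4% lower. Among fatty acid oxidation and ketogenesis genes 2 of 17 had a gained region, Pdk4 and Acot1.

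Genes of the actin cytoskeleton and adhesion had gained regions in 5 of 14 cases: Anxa3, Anxa5, S100a10, Tpm1 and Vcl. S100a10, a partner of annexin A2, had 55.2, 64.6 and 53.8 in Cox10-/- libraries, against 16, 17.8 and 24.3 in wild-type libraries. Tpm1, a tropomyosin, had a pair of intergenic gained regions at log2 ratios of 1.67 and 1.54, and Vcl, vinculin of focal adhesions, had 1.23. At Anxa3 the promoter was also called higher, with a log2 difference of 1.24 (SE 0.143), while those of Anxa5, S100a10, Tpm1 and Vcl were called lower, by -0.50 to -0.31, which centring turns positive. Of the actin list's 87 non-promoter regions, 16 were called higher and 54 lower, against 7.56% and 82.4% of all non-promoter regions. YAP and TEAD targets had 3 of 9, which were Ankrd1, Ajuba and Tgfb2, with log2 ratios of 1.71, 1.24 and 1.49. Of the 23 non-promoter regions of YAP and TEAD targets, 3 were called higher and 20 lower. Their median log2 ratio was -1.34, against -1.27 for all non-promoter regions.

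Slc2a1, the glucose carrier GLUT1 and a HIF target, had 4 gained regions within chr4:119098287-119102941. The one with the largest ratio, chr4:119102145-119102405, had 40.8, 46.0 and 40.9 in Cox10-/- libraries, against 3.99, 5.48 and 3.83 in wild-type libraries (log2 ratio 3.00). Its promoter was called lower, with a log2 difference of -0.61, which is positive when centred. Egln3, a prolyl hydroxylase that HIF induces, was the other of 2 HIF targets among 9, and Slc2a1 was also the only 1 of 4 glycolysis genes. Of the 39 non-promoter regions of HIF targets, 7 were called higher and 29 lower, against 7.56% and 82.4% of all non-promoter regions. Single genes stood for several lists: Me1, the cytosolic malic enzyme, 1 of 6 NRF2 targets; Mdm2, the ligase that degrades p53, 1 of 4 p53 targets; Cxcl1, a neutrophil attractant, 1 of 8 NF-kB and chemokine genes; Mt1, a metallothionein, 1 of 5; and Bhlhe40, a clock repressor, 1 of 11. The taller Me1 region (chr9:86642832-86643570) had 109.6, 79.9 and 75 in Cox10-/- libraries, against 16, 28.8 and 19.2 in wild-type libraries. The Mt1 region (chr8:94192945-94193531) had 74.8, 83.9 and 69.7 in Cox10-/- libraries, against 16, 19.2 and 16.6 in wild-type libraries. AP-1 and early-response genes had 2 of 12 (Dusp1 and Klf6) and TGF-beta genes 2 of 9 (Smad6 and Tgfb2).

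Several lists, some of them of hepatocyte function, held no gained region. Since 8.87% of all genes had one, lists of 3 to 15 genes can hold none, and nothing is read from these zeros. Secreted hepatocyte proteins had 0 of 15 genes with a gained region, and limma called 65 of their 67 non-promoter regions lower, where 82.4% of all non-promoter regions were. Urea cycle and amino acid breakdown genes had 0 of 12, with 57 of 60 regions called lower, and amino acid transporters 0 of 9, with 66 of 70 lower. Hepatocyte transcription factors had 2 of 15 (13.3%, against 8.87% of all genes), with 143 of 168 regions called lower. Among them, Gata4 had a pair of gained regions at log2 ratios of 1.35 and 1.46. Its promoter was called lower, with a log2 difference of -0.97, which is positive when centred. Cell cycle genes had 0 of 3, EGFR, MET and MAPK feedback genes 0 of 12, fetal liver genes 0 of 6 and heat shock genes 0 of 4.

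**Figure D5:**
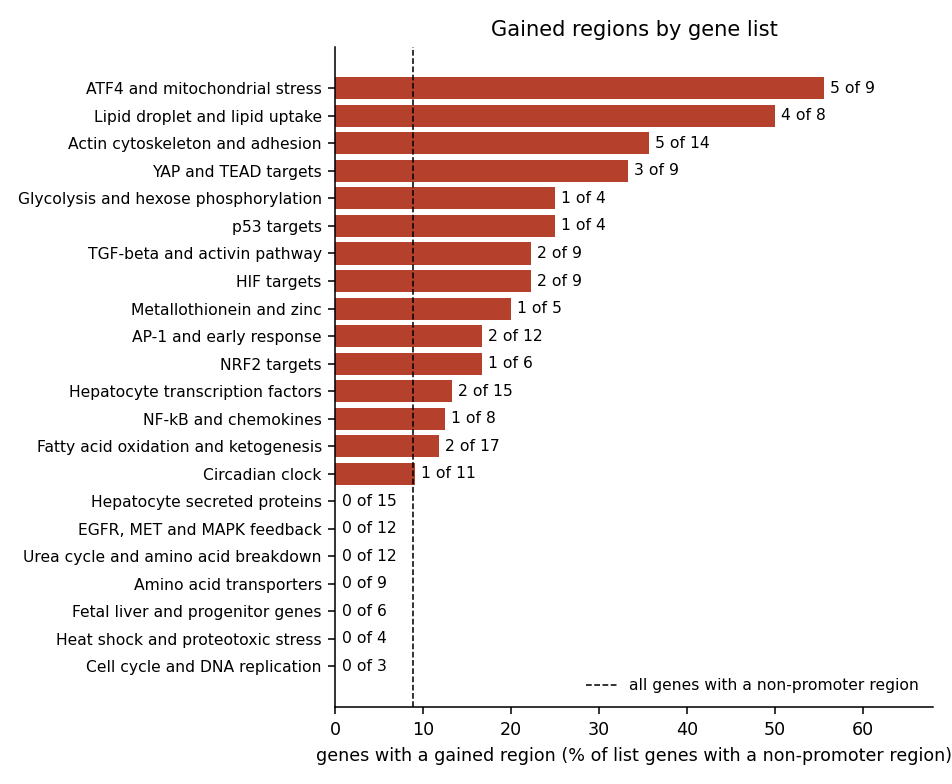
Share of each list's genes with a non-promoter region that had a gained one (horizontal axis, %), for the gene lists with 3 or more such genes, marker lists left out, with the counts beside the bars; the dashed line marks all genes with a non-promoter region (8.87%). Stress-response genes (5 of 9) and lipid droplet genes (4 of 8) have the longest bars, and secreted hepatocyte proteins stand at 0 of 15. Each bar rests on few genes, and no list was tested.

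Marker genes of other liver cells were measured beside these lists, and their part in the gained regions was not tested. Among macrophage and Kupffer cell markers 6 of 15 had any region, and 1 of 5 with a non-promoter region, Cd14, had a gained one. Their summed signal was 2571 to 2906 normalised reads in Cox10-/- libraries, against 5002 to 5304 in wild-type libraries. The Cd14 promoter was called higher, with 316, 341 and 284 in Cox10-/- libraries, against 139.7, 139.7 and 142 in wild-type libraries. Of 11 cholangiocyte markers 4 had a region, and their sum was 829.6 to 929.7 in Cox10-/- libraries, against 1656 to 1682 in wild-type libraries. Endothelial markers had 0 of 3, with sums of 445 to 537 in Cox10-/- libraries, against 819 to 907 in wild-type libraries. T, B and NK cell markers had 0 of 2, with sums of 445 to 529 in Cox10-/- libraries, against 959 to 999 in wild-type libraries. Of 8 neutrophil markers 1 had a region, with 5.65 to 11 in Cox10-/- libraries, against 46.0 to 55.9 in wild-type libraries. Of 14 stellate cell and fibroblast markers 1 gene had regions, with 119.7 to 143 in Cox10-/- libraries, against 94.5 to 114 in wild-type libraries. On the deposited scale, the stellate sum alone of these 6 was higher in every Cox10-/- library than in every wild-type library. Summed over the whole table, Cox10-/- libraries held 2487186 to 2806483 normalised reads, against 5337860 to 5505420 in wild-type libraries. The lower macrophage, cholangiocyte, endothelial and T, B and NK cell sums lie near this table-wide fall, and their direction rests on the scaling.

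The only non-promoter region named for Cox10, and for any gene of the complex IV list, was itself gained. It lay in intron 5 of 6 (chr11:63977336-63977787) and had 60.3, 46.0 and 65.9 normalised reads in Cox10-/- libraries, against 14.6, 17.8 and 12.8 in wild-type libraries, a log2 ratio of 1.86. The genotypes did not overlap. Which exons the floxed allele removes was not given in the sources used here.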

How the data were processed

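Of the 12 libraries, the 6 for H3K27ac were used, 3 per genotype, and the 6 inputs were left out. The authors deposited a signal per region: each value is a library's reads over its size factor, and multiplying back gave whole reads for 100% of values (tolerance 0.01 reads). Whole reads recovered in this way were used in alternatives only. The origin of the size factors and the way regions were selected are not stated in the sources used here; spike-in chromatin was added, per the labels' protocols. The same table holds the log2 fold changes, test scores, p-values and adjusted p-values that the authors deposited, used here only to count called regions. The submitters' processing notes name mm10, deepTools 3.5.0, MACS and BWA 0.7.5, with no role for each. Coordinates are as in the table. Of 36446 rows, 59 repeated a position and were dropped. Regions lay on 18 autosomes and X; chromosome 16 was not analysed here. All 12 samples have labels, and 0 columns of sample values were left unused.

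Regions were fitted with limma 3.58.1 (R 4.3.3) with a trend of variance on level, on log2(value + 1). Benjamini-Hochberg adjustment was over 36387 regions, with a threshold of 0.05. The fit was tested on simulated data with few changed regions. These data had no shift of the median region, so the shift seen here was not covered. A pseudocount of 1 understates changes of low regions. Same-numbered libraries did not deviate together (correlations of -0.00481 to 0.00191), and libraries were not paired in the main fit. Such correlations cannot exclude that same-numbered libraries shared a batch. Members and lists were chosen with earlier results of these data known. Regions named were the 8 of largest ratio at or above the median signal, the 8 of highest Cox10-/- mean, the 6 genes with most gained regions, up to 3 genes per list by Cox10-/- mean, 3 regions on either side of the threshold, and Cox10; the start-window regions, further regions of those genes, and the list genes Trib3, Hspa9, Hilpda, Anxa3 and Anxa5, and Sf3b3 were named after their values were seen. The promoter of a gene is its promoter region of highest mean. The result of 1 list gene is not reported here. RefSeq matched 380 of 386 nearest genes. Sequences of the regions were planned but replaced by RefSeq start windows, in which 14 motifs were searched. Alternatives were other pseudocounts, filters, thresholds and scaling, edgeR 4.0.16 and DESeq2 1.42.0 on recovered reads, a block, and leaving out each library. Intervals and tests cover the spread between libraries only.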

Additional observations from a re-analysis of the deposited data

How the results depend on the processing

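Depth limits the weak regions, where 1 wild-type read is worth up to 1.37 normalised reads. With a mean of 30 or more normalised reads (chosen after seeing the data) there were 303 gained regions, all 303 called higher, with a median width of 479 bases, nearest to 235 genes and 18 list genes (33 of all), and 47 promoter regions of those genes were called higher and 393 lower. With libraries centred on their median region, 2086 regions were gained, which held all 578, and 4624 non-promoter regions were called higher, all 2086 among them; the nearest genes numbered 1054 and the list genes 77. The promoter regions of these genes then had 1145 higher and 388 lower calls and a median of 0.23 (against -0.75), and their other non-promoter regions a median of 0.02 (against -0.71): these directions rest on the scaling, which moves the median region by 1.04. Over 5 kb from gained regions the median of other non-promoter regions was -0.94 (chosen after seeing the data). A ratio of 1.5-fold gave 960 regions and 4-fold 150; a pseudocount of 5 kept 503 of the 578 and one of 0.5 all 578. Leaving out each library gave 549 to 613 gained and called regions, 1073 to 1255 non-promoter regions called higher, 370 to 404 genes, 32 to 35 list genes, 73 to 86 promoter regions higher and 583 to 656 lower, medians of -0.79 to -0.70 and -0.77 to -0.71, widths of 336 to 341 bases and an intergenic share of 35.9% to 37.2%. With the replicate number as a block, 1256 non-promoter regions were called higher (1250 without), and 81 and 627 promoter regions; it changed none of these calls by over 1.5 times. In 591 refits of 43 named regions, direction and side of the adjusted p threshold stayed in 591, but with a pseudocount of 5 or a library left out the fitted log2 difference went under 1 at Klf6 (0.95 to 0.97), a region of Azin1 (0.91 to 0.97), Smad6 (0.83), a region of Dlgap1 (0.96) and Egln3 (0.97). The planned filter at a mean of 10 removed nothing, since the lowest mean was 10.8. Motif shares in central windows of the regions were not run.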

Other observations

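The share of non-promoter regions that were gained ranged over the chromosomes from 4.77% on chromosome 8 (46 of 965) and 4.53% on chromosome 15 (41 of 905) to 2.35% on chromosome 10 (21 of 895) and 1.18% on the X chromosome (1 of 85). Of the 41 on chromosome 15, 13 were named for Pvt1 and 6 for Azin1, so local groups weigh on that share. The share was not tested. Of the 214 intergenic gained regions, 57 (26.6%) lay upstream and 70 (32.7%) downstream of the nearest gene, 6 inside another annotated span of it, and 81 could not be placed; of all intergenic regions 29.4% lay upstream and 28.4% downstream.

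Letters of other motifs in the RefSeq start windows of the nearest genes were counted on both strands. TGTTTAC, the core bound by FOXA factors, stood in 7.81% of 397 windows, against 3.52% of 4062 windows of all genes nearest to a non-promoter region. TTGCNNAA, bound by C/EBP factors, stood in 14.1%, against 9.97%. TGANTCA, bound by AP-1, stood in 6.55%, against 6.25%, and ACGTG, the core of the hypoxia response element, which also lies inside the E-box CACGTG, stood in 29.2%, against 24.3%. Windows of 1 gene can overlap, so the windows are not independent, and the shares were not tested.

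Gained regions whose nearest gene has a predicted name numbered 61 (10.6%), against 11.9% of all non-promoter regions. The group of 5 gained regions nearest to Sf3b3, a splicing factor subunit, spanned 10.8 kb (chr8:110814760-110825526) with a sum of 184 normalised reads in Cox10-/- liver, against 41.8 in wild type.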
